A study of Mus musculus with 6 samples.

Results

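The AP-1 and early response genes described here were *Fos*, *Fosb*, *Fosl2*, *Jun*, *Junb*, *Jund*, *Atf3*, *Maff*, *Egr1* and *Egr2*, 10 genes taken from a list by name. Their peaks were those whose summit lay in the gene body or within 50 kb of it, which took in 1309 of the 1116429 peaks in 6 ATAC-seq peak lists. ATAC-seq reads chromatin accessibility as the rate at which the Tn5 transposase inserts into DNA, and a peak is a stretch where insertions pile up above the local background. Merged across libraries by summit, these peaks formed 176 of the 160874 sites in the whole series, a site being 401 bp around a summit with a peak in at least 2 libraries. The study asked how loss of the glucocorticoid receptor (GR) in astrocytes alters their chromatin in primary visual cortex (V1). All mice carried the floxed receptor allele (GRfl/fl) and received, at P0–P1, an AAV2/5 vector whose GfaABC1D promoter is active mainly in astrocytes. It drove either ΔCre, an inactive recombinase (GR-con), or Cre (GR-KO), each joined through T2A to EGFP-KASH, a tag of the nuclear envelope, and followed by the 4x6T sequence. V1 was taken at P21, tissue from 3–4 animals was pooled for each replicate, and 50000 DRAQ5+/GFP+ nuclei were sorted per library. There were 3 GR-con and 3 GR-KO libraries.

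AP-1 is a dimer of basic leucine zipper proteins. The FOS proteins (*Fos*, *Fosb*, *Fosl2*) must pair with a JUN protein (*Jun*, *Junb*, *Jund*), and ATF3 and the small MAF protein MAFF belong to the same superfamily. The dimers bind the AP-1 element or, for some pairs, the cAMP response element. EGR1 and EGR2 are zinc finger factors that are induced alongside them. Most of these genes are immediate early genes, switched on within minutes of a signal without new protein synthesis through serum response factor at CArG boxes and CREB at cAMP response elements, while *Jund* is expressed at a steadier level. In astrocytes they respond to injury, cytokines and neuronal activity. Ligand-bound GR is known to restrain AP-1 by contacting it as well as to bind DNA through its own palindromic elements.

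Differences in accessibility between GR-con and GR-KO were called at the 10 genes at about the share seen over all sites. The promoters of *Fos*, *Fosb*, *Fosl2*, *Jun*, *Junb*, *Jund*, *Maff* and *Egr1* had a peak in all 6 libraries, and their mean fold, the height of a peak over its local background, in GR-KO was 0.958 to 1.08 times that in GR-con. None of the 176 sites differed by peak fold at an adjusted p under 0.05 (limma), where 0.127% of all sites were called lower and 0.0615% higher in GR-KO. By the −log10 p of the peak, which also grows with its reads, 3 sites away from the starts were called: one upstream of *Junb* and one downstream of *Fosb* ranked lower in GR-KO, and one upstream of *Fos* ranked higher. These were 1.14% and 0.568% of the 176, against 0.839% and 0.764% of all sites. A further 3 weak sites, near *Jun*, *Junb* and *Jund*, had peaks in every library of one condition and none of the other, 1.14% in GR-con only and 0.568% in GR-KO only, against 1.15% and 0.622% of all sites. The tests used scores, the rank of a site's value among all sites of a library put on a standard normal scale, and differences are GR-KO minus GR-con. In sorted bulk nuclei, fewer nuclei with an open site and a less open site in each nucleus cannot be told apart. Distances are from the GENCODE start of the gene to the centre of the site.

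The sequences at 5 of these 6 sites are shown. These sites were called by −log10 p or had peaks in one condition only, and the latter passed neither test. Each sequence is the 201 bases around the summit in GRCm38 (mm10). The sixth, near *Fosb*, lies in the untranslated part of a *Vasp* exon. Capitals would mark an AP-1 element (TGACTCA), a cAMP response element (TGACGTCA), an EGR element (GCGTGGGCG), a GR palindrome (ACANNNTGT) or a CArG box, searched on both strands. None of the 5 sequences holds one, which says only that these letters are not in these windows.
*Junb*, 19384 bp upstream, lower in GR-KO by −log10 p, chr8:84998002-84998202, plus strand: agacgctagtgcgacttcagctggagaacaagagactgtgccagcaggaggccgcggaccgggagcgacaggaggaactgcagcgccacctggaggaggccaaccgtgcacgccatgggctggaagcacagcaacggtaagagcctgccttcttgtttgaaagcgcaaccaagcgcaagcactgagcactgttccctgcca
*Fos*, 18017 bp upstream, higher in GR-KO by −log10 p, chr12:85455773-85455973, plus strand: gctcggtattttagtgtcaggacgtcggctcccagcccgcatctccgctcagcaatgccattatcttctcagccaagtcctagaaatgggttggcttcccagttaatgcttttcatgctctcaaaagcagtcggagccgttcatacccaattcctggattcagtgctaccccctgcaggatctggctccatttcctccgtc
*Junb*, 25698 bp downstream, GR-con only, chr8:84952920-84953120, plus strand: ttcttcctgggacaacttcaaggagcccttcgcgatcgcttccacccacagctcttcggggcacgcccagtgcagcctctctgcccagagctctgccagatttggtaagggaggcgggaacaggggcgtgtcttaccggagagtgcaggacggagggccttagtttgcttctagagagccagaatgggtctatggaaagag
*Jun*, 52879 bp downstream, GR-con only, chr4:94999243-94999443, plus strand: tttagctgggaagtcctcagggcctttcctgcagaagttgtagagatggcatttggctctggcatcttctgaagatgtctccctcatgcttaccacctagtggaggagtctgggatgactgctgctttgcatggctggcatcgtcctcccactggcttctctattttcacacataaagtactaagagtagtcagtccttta
*Jund*, 26481 bp downstream, GR-KO only, chr8:70725330-70725530, plus strand: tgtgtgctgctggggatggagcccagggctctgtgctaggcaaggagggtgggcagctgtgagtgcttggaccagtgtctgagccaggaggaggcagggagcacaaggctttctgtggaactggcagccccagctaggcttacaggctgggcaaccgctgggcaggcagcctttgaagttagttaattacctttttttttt

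The next sequences are those of strongly open sites with no called difference, shown for the promoters and for the elements they hold. The first is the strongest site near *Atf3* away from its start, with an AP-1 element. The second is the *Fosb* promoter and the third the strongest site near *Fos* away from its start, each with a CArG box. The last pair are the 250 bases before the RefSeq starts of *Fos* and *Jun*, which hold none of the letters searched.
*Atf3*, 6364 bp upstream, AP-1 element, chr1:191224303-191224503, plus strand: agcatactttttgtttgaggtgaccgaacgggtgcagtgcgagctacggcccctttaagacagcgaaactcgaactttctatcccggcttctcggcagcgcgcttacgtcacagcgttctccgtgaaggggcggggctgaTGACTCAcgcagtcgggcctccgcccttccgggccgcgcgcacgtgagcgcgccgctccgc
*Fosb* promoter, 304 bp upstream, CArG box, chr7:19310255-19310455, plus strand: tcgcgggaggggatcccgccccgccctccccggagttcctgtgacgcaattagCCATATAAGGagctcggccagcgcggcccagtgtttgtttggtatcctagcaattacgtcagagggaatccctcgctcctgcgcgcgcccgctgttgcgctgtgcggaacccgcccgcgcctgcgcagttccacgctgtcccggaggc
*Fos*, 12221 bp downstream, CArG box, chr12:85486011-85486211, plus strand: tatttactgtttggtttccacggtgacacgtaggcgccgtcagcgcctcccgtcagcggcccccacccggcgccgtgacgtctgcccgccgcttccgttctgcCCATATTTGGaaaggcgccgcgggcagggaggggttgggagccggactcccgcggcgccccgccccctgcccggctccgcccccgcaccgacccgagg
*Fos* promoter, chr12:85473640-85473889, plus strand: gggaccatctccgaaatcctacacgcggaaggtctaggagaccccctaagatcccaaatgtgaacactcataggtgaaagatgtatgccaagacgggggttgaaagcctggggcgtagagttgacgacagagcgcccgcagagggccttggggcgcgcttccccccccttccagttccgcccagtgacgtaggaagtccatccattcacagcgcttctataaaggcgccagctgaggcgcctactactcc
*Jun* promoter, chr4:95052223-95052472, minus strand: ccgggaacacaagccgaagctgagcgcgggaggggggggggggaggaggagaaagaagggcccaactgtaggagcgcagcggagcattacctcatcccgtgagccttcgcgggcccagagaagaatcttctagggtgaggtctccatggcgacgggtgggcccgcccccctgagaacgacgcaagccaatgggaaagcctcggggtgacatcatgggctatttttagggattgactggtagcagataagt

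Of the 176 sites, 8 held an AP-1 element in the 201 bases around the summit (4.55%, against 4.12% of all 160874 sites). A CArG box was in 6 (3.41% against 0.955%), a cAMP response element in 3 (1.71% against 0.540%), an EGR element in 2 (1.14% against 0.180%), and the GR palindrome in 3 (1.71% against 5.79%). The CArG boxes were at 2 *Fos* sites and 1 site each near *Fosb*, *Junb*, *Egr1* and *Egr2*. Of the AP-1 elements, 4 were near *Fosb*, 2 near *Jund* and 1 each near *Junb* and *Atf3*. The cAMP response elements were near *Jund*, *Maff* and *Egr1*, the EGR elements near *Jund* and *Maff*, and the GR palindromes near *Egr2* and *Maff*. No searched string contains another, and the shares are descriptions of letters, not of binding. In the 250 bases before the starts of the 32851 promoters in the RefSeq table (GRCm38.p6), the corresponding shares were 4.46% for AP-1, 1.47% for the CArG box, 1.55% for the cAMP response element, 0.536% for EGR and 5.84% for the GR palindrome. That table held promoters of 9 of the 10 genes. In those 250 bases, 1 of the 9 held a searched string, *Jund*, with a GR palindrome 29 bases before its RefSeq start. These *Jund* bases (chr8:70697489-70697738) lie upstream of, and outside, the *Jund* promoter site described below.

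The peak lists held 179462 to 198929 peaks per library, and read depth is unknown because they give no counts. Correlations of site scores between libraries were 0.887 to 0.893 within a condition and 0.863 to 0.871 across conditions, so no library stood apart. Of 8 astrocyte genes, 6 had a peak within 1000 bp of their annotated start in every library (*Gfap*, *Slc1a2*, *Slc1a3*, *Gja1*, *Sox9* and *Aldoc*) and *Aqp4* and *Aldh1l1* had none in any. Peaks were also present in all 6 libraries at the neuronal genes *Snap25* and *Syt1*, the microglial *P2ry12* and *Tmem119*, the oligodendrocyte lineage genes *Mbp* and *Pdgfra*, and the endothelial *Cldn5* and *Flt1*. *Snap25* had the highest fold of all these markers, 19.8 to 26.8. Mean fold per gene was 5.54 for the astrocyte and 6.23 for the neuronal genes. It was 3.50 for the microglial, 2.64 for the oligodendrocyte lineage and 2.01 for the endothelial genes. Sums run over unequal numbers of genes, so they compare conditions and not cell types. The summed fold of the 8 astrocyte genes was 42.2 to 44.4 in GR-con and 44.2 to 46.3 in GR-KO. That of the 6 neuronal genes was 35.8 to 39.3 in GR-con and 34.4 to 41.7 in GR-KO, and that of the 5 microglial genes 14.6 to 20.2 and 14.1 to 23.2. These ranges overlapped between conditions, as did those of the 5 oligodendrocyte lineage genes (11.9 to 16.3 and 11.7 to 14.3) and the 4 endothelial genes (7.76 to 9.03 and 6.96 to 9.19), and the part of other cells in the results was not tested. Some single markers did not overlap between conditions. *Gfap* (5.56 to 6.48 in GR-con, 4.84 to 5.23 in GR-KO), *Cldn5* (3.71 to 5.27, 2.68 to 3.51) and *Gad2* (4.14 to 5.10, at most 3.79 with no peak in 1 library) had lower fold in every GR-KO library. *Sox9* (9.02 to 9.71, 9.99 to 11.0), *Aldoc* (5.66 to 6.14, 6.25 to 6.59) and *Tmem119* (3.78 to 6.42, 6.81 to 8.98) had higher fold in every GR-KO library. The targeted gene *Nr3c1* had 17 to 19 peaks in its body in GR-con and 19 to 23 in GR-KO, which does not test the deletion itself.

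The number of peaks at the 10 genes did not separate the conditions. It was 220, 207 and 229 in GR-con replicates 1 to 3 and 217, 228 and 208 in GR-KO replicates 1 to 3, or 219 ± 11.1 and 218 ± 10.0 (SD, n = 3 each). Per 100000 peaks of a list it was 115 ± 3.28 in GR-con and 119 ± 5.64 in GR-KO. The ranges overlapped on both scales. *Fosb* had the most peaks, 36 to 39 in GR-con and 38 to 41 in GR-KO, and *Egr2* the fewest, 9 to 10 in both. The *Atf3* counts were 18, 17 and 17 in GR-con and 17, 16 and 15 in GR-KO, and the *Junb* counts 29, 30 and 30 against 29, 27 and 27, so both touched at 1 value. For each of the other genes the ranges overlapped as well. Of the 1309 peaks, 984 (75.2%) fell in a site kept for testing, against 75.6% of all peaks. The other 325 lay in no such site.

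**Figure D1:**
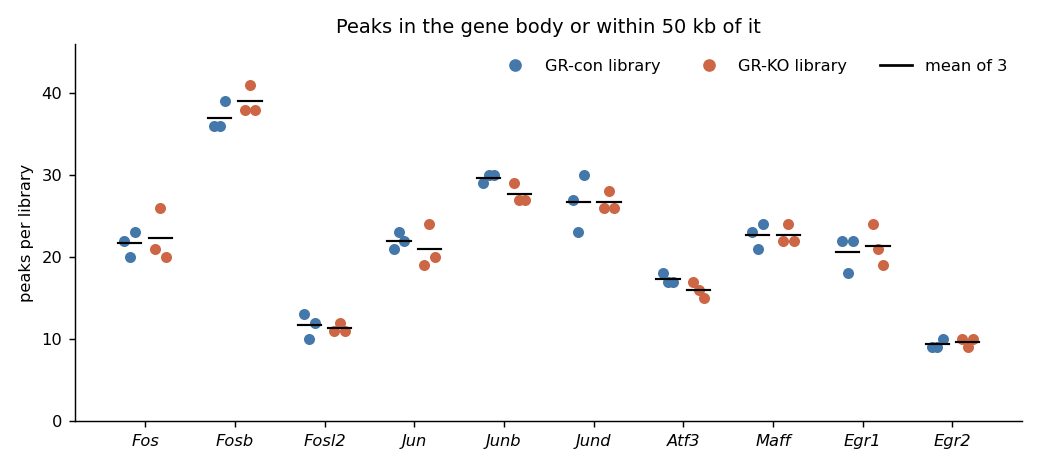
Number of peaks per library (y axis) whose summit lies in the body of each gene or within 50 kb of it (x axis). Each point is 1 library, blue for GR-con and red for GR-KO, and the bar is the mean of 3; the 2 conditions share values or ranges at every gene, from 9 to 10 peaks at Egr2 to 36 to 41 at Fosb.

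Among all sites, those of the 10 genes were on the strong and shared side. A peak was present in all 6 libraries at 134 of the 176 (76.1%), against 62.0% of all sites, and the median percentile of their mean rank by fold was 61.7, against 50.0. A coding gene's start lay within 1000 bp of 44 of them (25.0%, against 13.4%), and their median GC content was 57.7%, against 51.2%. By GENCODE annotation 100 lay between genes, 45 in introns, 10 in coding exons, 19 in untranslated parts of exons and 2 in other exons. The nearest coding start was that of a listed gene for 86 of the 176. It was so for all 18 *Fos* sites, but for 4 of the 22 *Junb* sites and 10 of the 29 *Fosb* sites.

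Among the FOS genes, the promoter of *Fos*, the archetypal immediate early gene, had its site 28 bp upstream of the start (chr12:85473662-85474062), over the RefSeq promoter shown above. Its fold was 13.7, 11.3 and 10.3 in GR-con and 12.3, 12.8 and 11.9 in GR-KO. The GR-KO values lay within the GR-con range (score difference 0.07 ± 0.08 SE, adjusted p = 0.762, limma). The strongest *Fos* site away from the start, 12221 bp downstream with the CArG box, had fold 19.7, 18.8 and 17.5 against 19.4, 19.1 and 19.1, again within the GR-con range (adjusted p = 0.783). Other open sites lay along the 50 kb on both sides, and 16 of the 18 *Fos* sites had a peak in all 6 libraries.

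The *Fos* site called by −log10 p lay 18017 bp upstream of the start, between genes (chr12:85455673-85456073). Its −log10 p was 47.0, 76.9 and 58.3 in GR-con and 95.9, 108 and 124 in GR-KO, so every GR-KO library was above every GR-con library. The means were 60.8 ± 15.1 and 109 ± 14.1 (SD, n = 3), a score difference of 0.36 ± 0.07 (SE) with adjusted p = 0.0163. By fold it was 4.16, 5.16 and 4.51 against 5.52, 5.97 and 6.43, also without overlap, but the fold test gave adjusted p = 0.362. The site is a shoulder of a broad peak of 1109 to 1156 bp whose main summit, 584 bp away, had fold 14.8, 15.2 and 14.7 in GR-con and 15.3, 14.5 and 13.6 in GR-KO, with overlapping ranges (adjusted p = 0.936). Reading sites by the peak that covers them, in which this shoulder takes the value of the main summit, the call was lost (adjusted p = 0.724), as it was with sites of 201 bp (adjusted p = 0.0704). It was also lost on leaving out any 1 library, with adjusted p = 0.176, 0.0643 and 0.134 without GR-con replicates 1, 2 and 3, and 0.0507, 0.103 and 0.136 without GR-KO replicates 1, 2 and 3.

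*Fosb*, which encodes a FOS protein and its long-lived truncated form ΔFOSB, had the strongest promoter of the list. The site 304 bp upstream of its start (chr7:19310155-19310555), with the CArG box shown above, had fold 15.9, 16.1 and 15.7 in GR-con and 16.4, 16.8 and 15.1 in GR-KO. The GR-con values lay inside the GR-KO range (score difference 0.02 ± 0.06, adjusted p = 0.934). Its strongest site away from the start, 10091 bp upstream, had fold 28.3, 25.3 and 24.8 against 25.5, 27.6 and 25.5, with overlapping ranges (adjusted p = 0.974). The called site lay 52526 bp downstream, in an untranslated exon part of *Vasp*, an actin regulator whose start is the nearest (chr7:19257325-19257725). Its −log10 p was 178, 207 and 145 in GR-con and 122, 106 and 93.2 in GR-KO, without overlap. The score difference was -0.27 ± 0.07 (SE) with adjusted p = 0.0475. The fold was 22.0, 21.2 and 16.7 against 17.0, 15.9 and 14.1, where GR-con replicate 3 fell below GR-KO replicate 1 (adjusted p = 0.205). Without GR-con replicate 1, 2 or 3 the adjusted p by −log10 p was 0.234, 0.247 and 0.0638, and without GR-KO replicate 1, 2 or 3 it was 0.098, 0.183 and 0.212. With sites read by the peak that covers them it was 0.250, with a peak in at least 3 libraries 0.054, with sites of 201 bp 0.131, and with the replicate number as a block 0.0841.

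A pair of other *Fosb* sites were among the 5 with the smallest unadjusted p in the higher direction. At 26892 bp downstream, in an intron of *Rtn2*, fold was 8.87, 7.88 and 6.43 in GR-con and 10.4, 9.21 and 9.60 in GR-KO, without overlap (adjusted p = 0.302). At 28685 bp upstream, fold was 2.24 in the single GR-con library with a peak and 3.72, 3.14 and 3.21 in GR-KO (adjusted p = 0.197). Neither passed the test. *Fosl2*, encoding the FOS-related protein FRA2, had its promoter site 49 bp upstream of the start (chr5:32135552-32135952), with fold 12.1, 11.0 and 11.9 in GR-con and 11.1, 11.2 and 11.3 in GR-KO. The GR-KO values lay within the GR-con range (adjusted p = 0.941). The strongest *Fosl2* site, 62095 bp downstream, had fold 28.2, 31.0 and 26.3 against 25.2, 25.7 and 27.6, with overlapping ranges (adjusted p = 0.538). A weak intronic site 4140 bp downstream had a peak in 1 GR-con library (fold 2.71) and in all GR-KO libraries (3.70, 2.58 and 2.90), with adjusted p = 0.138 by −log10 p.

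Of the JUN genes, *Jun*, the main partner of FOS, had the lowest mean fold of the 8 promoters open in all 6 libraries. The site 77 bp upstream of its start (chr4:95052099-95052499) had fold 8.68, 8.68 and 8.49 in GR-con and 10.2, 8.68 and 8.62 in GR-KO. GR-KO replicate 1 was the high library, and the others lay together (score difference 0.08 ± 0.07, adjusted p = 0.700). The strongest *Jun* site away from the start, 43870 bp downstream, had fold 22.2, 20.5 and 18.9 against 24.2, 22.4 and 20.7, with overlapping ranges (adjusted p = 0.445). The weak site 52879 bp downstream (chr4:94999143-94999543) was listed only in GR-con, with fold 3.97, 2.63 and 3.04 and −log10 p 8.19, 3.78 and 5.37. The nearest summit in any GR-KO library was 8545 bp away. By rank it did not pass the test (adjusted p = 0.197 by fold and 0.319 by −log10 p).

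*Junb*, whose product can oppose JUN, had the called site of highest fold. It lay 19384 bp upstream of the start, in a coding exon of *Hook2*, a microtubule-linking protein gene (chr8:84997902-84998302). Its fold was 30.1, 30.8 and 27.0 in GR-con and 25.3, 23.9 and 24.3 in GR-KO, and its −log10 p 277, 291 and 259 against 214, 175 and 171. Every GR-con library was above every GR-KO library on both scales. The score difference by −log10 p was -0.26 ± 0.06 (SE) with adjusted p = 0.0295, and by fold -0.68 ± 0.15 with adjusted p = 0.123. In rank it stayed among the strongest sites in both conditions, at the 99.5th to 99.8th percentile of peaks by fold in GR-con and the 98.0th to 98.5th in GR-KO. Without GR-con replicates 1, 2 and 3 the adjusted p was 0.160, 0.166 and 0.102, without GR-KO replicate 1 it was 0.0464, and without GR-KO replicates 2 and 3 it was 0.155 and 0.146. With sites read by the peak that covers them it was 0.133, and with sites of 201 bp 0.0702.

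The *Junb* promoter site, 78 bp upstream of the start (chr8:84978596-84978996), had fold 10.1, 10.1 and 8.94 in GR-con and 10.3, 8.92 and 9.23 in GR-KO, with overlapping ranges (score difference 0.01 ± 0.07, adjusted p = 0.981). A second *Junb* site, 25698 bp downstream in a coding exon of *Rtbdn* (chr8:84952820-84953220), had a peak in GR-con only. Its fold was 4.91, 3.39 and 4.40 and its −log10 p 11.9, 6.14 and 10.7. The nearest GR-KO summit was 3904 bp away, and the score difference by fold, -1.21 ± 0.23, was the most negative of the 176 (adjusted p = 0.088). Of the 22 *Junb* sites, 16 had a negative score difference by −log10 p and 13 by fold. By −log10 p it was negative at 11 of 16 *Jun* sites, and at only 4 of 18 *Fos* and 4 of 18 *Egr1* sites. Over all sites the share was 48.8% by −log10 p and 46.7% by fold, and over the 176 sites 49.4% and 44.3%.

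*Jund*, the most constitutive member of the JUN family, had its promoter site 153 bp upstream of the GENCODE start (chr8:70698596-70698996), with a cAMP response element. RefSeq places the start farther upstream. The fold was 11.3, 12.5 and 10.9 in GR-con and 11.998, 12.4 and 11.7 in GR-KO, within the GR-con range (adjusted p = 0.745 by fold and 0.534 by −log10 p). At 11157 bp upstream, fold was 16.6, 17.7 and 14.9 against 12.1, 13.6 and 13.5, without overlap, at adjusted p = 0.175 by fold and 0.126 by −log10 p. At 39152 bp upstream, in an intron of *Pgpep1*, it was 10.5, 10.4 and 9.34 against 13.5, 11.3 and 11.2, without overlap in the other direction, at adjusted p = 0.360 and 0.104. Neither passed the test. A weak site 26481 bp downstream, in an intron of *Pde4c* (chr8:70725230-70725630), was listed only in GR-KO, with fold 2.69, 2.21 and 3.34 and −log10 p 5.01, 3.00 and 6.47 (adjusted p = 0.210 by fold). With peaks limited to q at most 0.01, it no longer had a peak in all 3 GR-KO libraries.

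**Figure D2:**
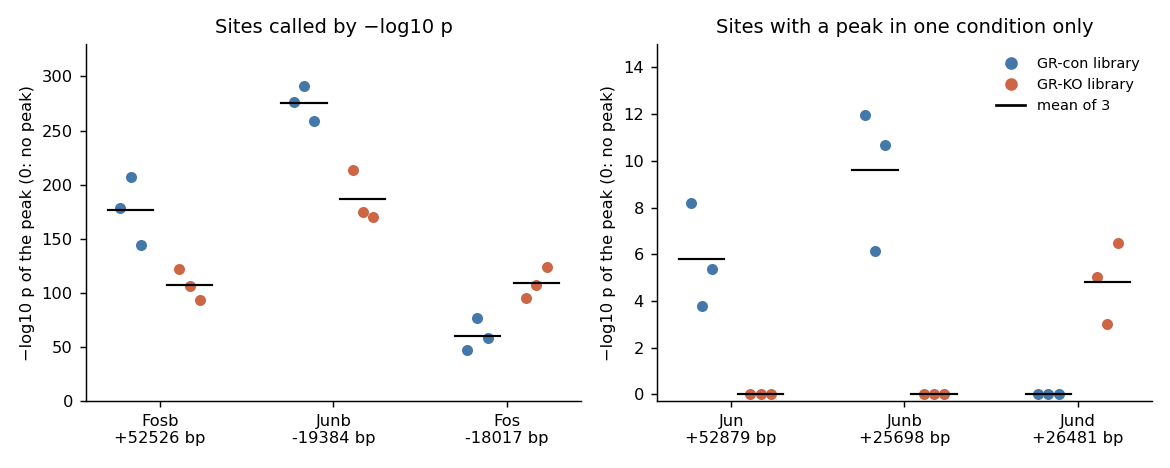
−log10 p of the peak at the 3 sites called by −log10 p (left) and the 3 sites with peaks in one condition only (right), labelled by gene and distance from its start; each point is 1 library (blue GR-con, red GR-KO), the bar is the mean of 3, and 0 means no peak. The called sites lie between 47.0 and 291, and the sites of one condition lie at 11.9 or below.

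The stress-responsive *Atf3* had no site within 1000 bp of its GENCODE gene start, which belongs to a long transcript. At its RefSeq start, a site looked up after its values were seen lay 14 bp upstream (chr1:191183147-191183547). Its fold was 11.4, 11.98 and 9.14 in GR-con and 12.2, 12.2 and 12.2 in GR-KO, so GR-con replicate 3 was the low library and the groups did not overlap (score difference 0.14 ± 0.07, adjusted p = 0.457). The strongest *Atf3* site, 6364 bp upstream of the GENCODE start with the AP-1 element, had fold 22.9, 23.9 and 24.3 against 24.8, 25.2 and 23.3, with overlapping ranges (adjusted p = 0.781). *Maff*, a small MAF protein without a transactivation domain, had its promoter site 868 bp downstream of the start in an intron (chr15:79347289-79347689), with a cAMP response element and an EGR element. Its fold was 11.8, 13.0 and 11.7 in GR-con and 13.9, 14.9 and 10.6 in GR-KO. GR-KO held both the highest and the lowest value (adjusted p = 0.739). The strongest site in the *Maff* window, 18328 bp upstream beside the start of *Pla2g6*, had fold 20.8, 21.1 and 20.1 against 23.1, 23.0 and 21.3, without overlap (adjusted p = 0.356). At 34012 bp downstream, in an intron of *Tmem184b*, −log10 p was 164, 144 and 154 against 119, 122 and 102, without overlap (adjusted p = 0.267).

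*Egr1* and *Egr2* had no called site, and none with a peak in all 3 libraries of one condition and none of the other. At the *Egr1* promoter, 136 bp downstream of the start in an untranslated exon part (chr18:34859759-34860159), fold was 8.92, 9.04 and 9.42 in GR-con and 9.46, 8.76 and 9.46 in GR-KO, with overlapping ranges (score difference 0.04 ± 0.07, adjusted p = 0.899). Its strongest distal site, 9509 bp upstream, had fold 19.1, 17.2 and 18.1 against 17.6, 17.7 and 20.1 (adjusted p = 0.925). None of the 18 *Egr1* sites had even an unadjusted p under 0.05 by fold or by −log10 p. *Egr2* had a weak summit 107 bp upstream of its start in GR-con replicate 3 (fold 2.78) and GR-KO replicate 3 (2.32) alone. Its open site was 689 bp downstream, in an intron (chr10:67535964-67536364), with fold 10.0, 11.4 and 11.3 against 9.62, 10.2 and 10.6, where the ranges overlapped (adjusted p = 0.883). The strongest site in the *Egr2* window, 13629 bp downstream near the start of *Ado*, had fold 20.5, 20.3 and 20.2 against 20.5, 21.5 and 23.4. GR-KO replicate 3 was the high library (adjusted p = 0.555).

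**Figure D3:**
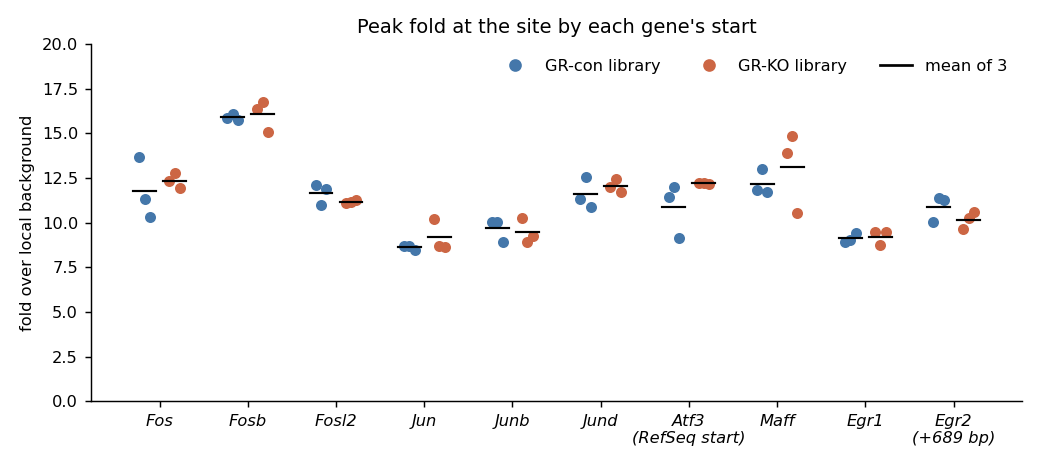
Peak fold over local background (y axis, from 0) at the site by each gene's start; for Atf3 the RefSeq start is used and for Egr2 the site 689 bp downstream. Each point is 1 library (blue GR-con, red GR-KO) and the bar is the mean of 3; Fosb is highest at 15.1 to 16.8, Jun and Egr1 are lowest, and the conditions overlap at every gene but Atf3, where the lowest GR-KO value, 12.2, lies above the highest GR-con value, 11.98.

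Taking all 6 libraries, mean promoter fold ran from *Fosb* (16.0 ± 0.567, SD, n = 6) through *Maff* (12.6 ± 1.57), *Fos* (12.1 ± 1.17), *Jund* (11.8 ± 0.637), *Fosl2* (11.4 ± 0.463), *Junb* (9.58 ± 0.616) and *Egr1* (9.18 ± 0.307) to *Jun* (8.90 ± 0.656). The *Fosb* values lay above those of every other gene. The ranges of *Maff*, *Fos*, *Jund* and *Fosl2* overlapped each other, and so did those of *Junb*, *Egr1* and *Jun*. Fold is relative to the local background of each site, so this order describes peaks, not expression. The strongest sites away from the starts, 1 for each of the 10 genes, lay at the 92.2nd to 99.3rd percentile by mean rank. For 6 of them the nearest coding start was that of another gene.

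**Figure D4:**
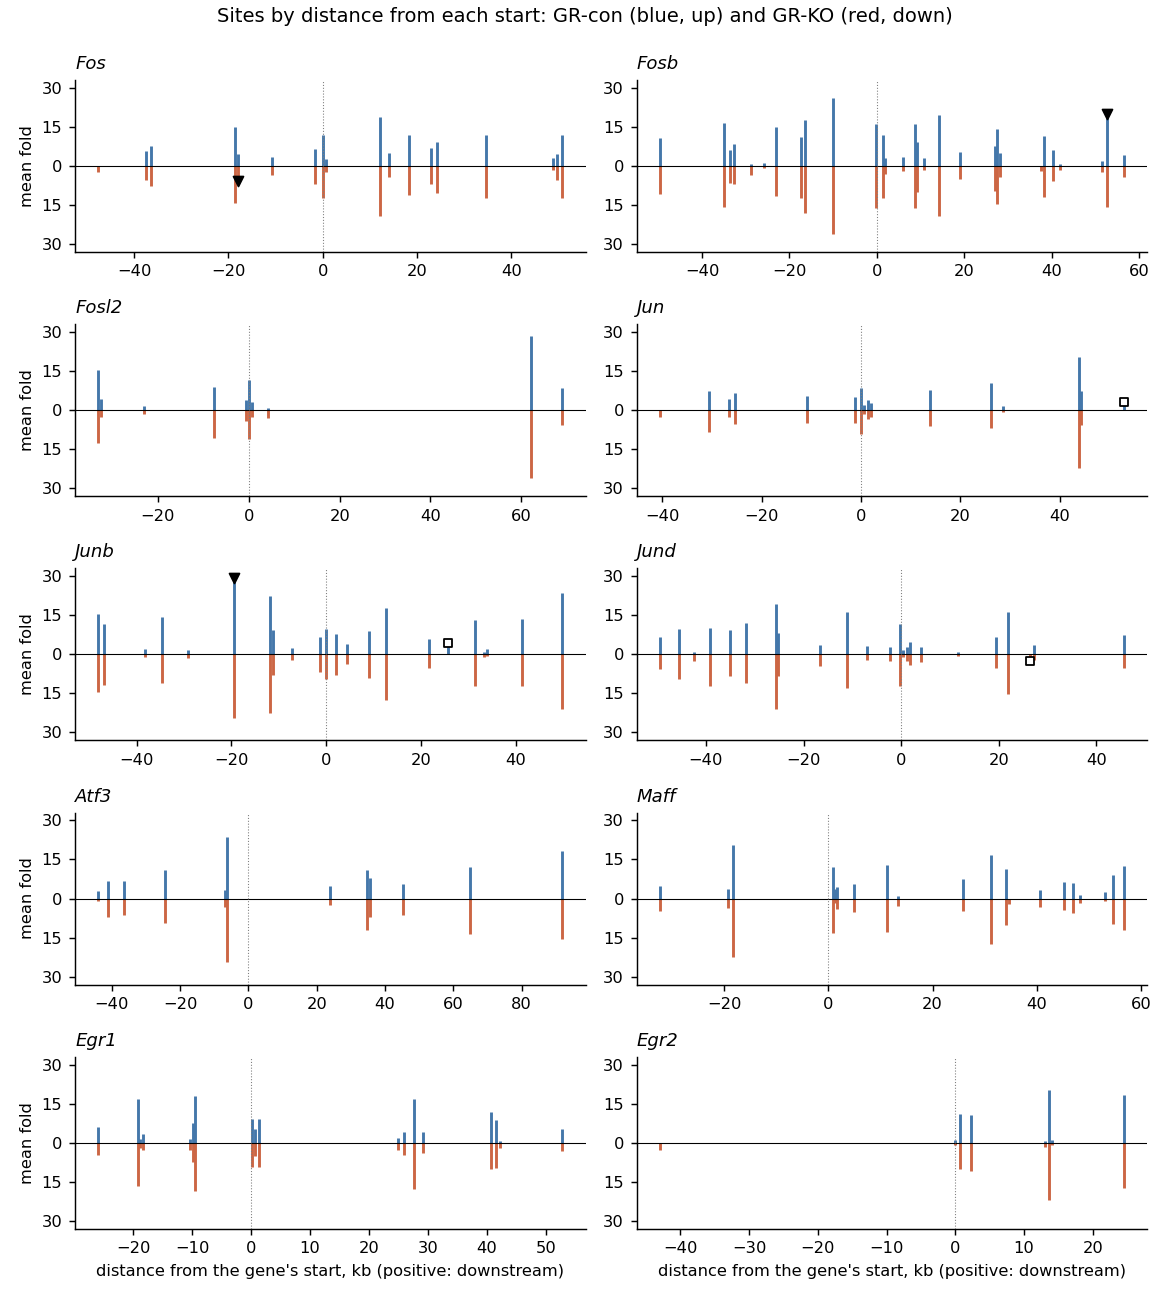
The 176 sites by distance from the start of each gene in kb (x axis), with the mean fold of 3 GR-con libraries as blue bars upwards and of 3 GR-KO libraries as red bars downwards (y axis). Triangles mark the 3 sites called by −log10 p and open squares the 3 sites with peaks in one condition only; the bars mirror each other at most sites, with the strongest at 29.3 in GR-con near Junb.

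Set against the whole table, the calls at the 10 genes were about as frequent as elsewhere. By fold, 0 of 176 were called in either direction, against 0.127% of all sites lower and 0.0615% higher in GR-KO, and 23 of the 176 had an unadjusted p under 0.05 (13.1%, against 12.1% of all sites). By −log10 p, 2 of 176 were called lower (1.14%, against 0.839%) and 1 higher (0.568%, against 0.764%), and 25 had an unadjusted p under 0.05 (14.2%, against 13.4%). Peaks in all GR-con and no GR-KO library were at 2 (1.14%, against 1.15%), and the reverse at 1 (0.568%, against 0.622%). Each share was near its background. At the sites with a peak in all 6 libraries alone, ranks gave 234 lower and 169 higher by fold over the series, and log2 values in place of ranks gave 347 and 338, with 0 at the 10 genes on either scale. By −log10 p at those sites, ranks gave 1750 lower and 1839 higher, and log2 values 1928 and 3823. The log2 values were centred on the median of each library, so their differences are not those of the uncentred values. On them, 2 of 134 sites at the 10 genes were called lower by −log10 p and 4 higher, against 1928 and 3823 of 99768. The 2 called lower and 1 called higher by rank were joined by 3 *Jund* sites called higher. These were the sites 39152 bp upstream (adjusted p = 0.0122) and 25709 bp upstream (adjusted p = 0.0244) and the promoter site (adjusted p = 0.0419), whose −log10 p was 457, 531 and 432 in GR-con and 520, 579 and 484 in GR-KO, with overlapping ranges. The median score difference by fold was 0.02 both over the 176 sites and over all sites, and by −log10 p it was 0.00 and 0.01.

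**Figure D5:**
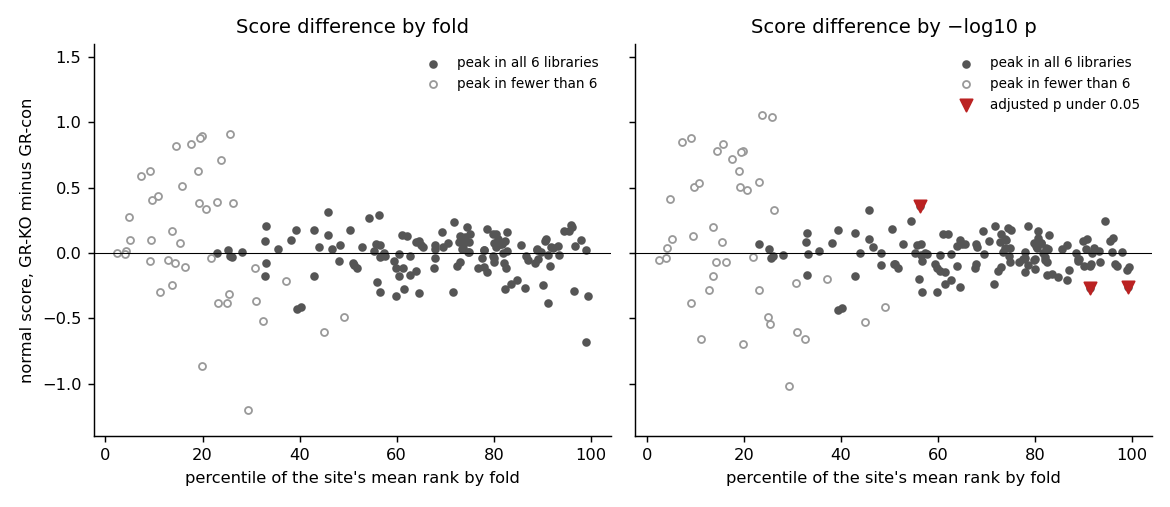
Score difference, GR-KO minus GR-con (y axis, normal scores), of the 176 sites against the percentile of their mean rank by fold among all sites (x axis), by fold (left) and by −log10 p (right). Filled points have a peak in all 6 libraries, open points in fewer, and triangles mark adjusted p under 0.05; no site is called by fold, 3 are by −log10 p, and differences beyond 0.7 in size are all at sites with a peak in fewer than 6 libraries.

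At the 134 sites with a peak in all 6 libraries, the ratio of mean fold, GR-KO to GR-con, ran from 0.652 to 1.30 with a median of 0.988. The groups did not overlap by fold at 30 of them, lower in GR-KO at 21 and higher at 9. Over the 99768 sites of the series with a peak in all 6, the groups did not overlap with GR-KO lower at 10.4% and higher at 7.76%. By −log10 p, GR-KO was lower without overlap at 25 and higher at 7 of the 134, against 14.6% and 6.75% of the 99768. On both scales the lower share was above that of the series and the higher share below it, which was not tested. These values were not ranked within a library. On rank scores, unadjusted p (limma) was under 0.05 at 12 lower and 11 higher of the 176 sites by fold, and 13 and 12 by −log10 p. Over all 160874 sites it was 9683 and 9836 by fold, and 10247 and 11235 by −log10 p. The 42 sites with a peak in fewer than 6 libraries were weak, with a median fold of 2.79. Of these, 15 had peaks in more GR-con libraries, 15 in more GR-KO libraries and 12 in equal numbers.

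Other genes of the pathway, taken as 2 lists, gave a few calls. Around 11 further AP-1 and bZIP partners, 194 sites held 1 called by both fold and −log10 p, in the higher direction, where 0.0615% of all sites were called by fold and 0.764% by −log10 p. It lay 102093 bp downstream of the start of *Atf2*, which encodes a cAMP response element binding partner of JUN, with fold 11.0, 12.2 and 11.5 in GR-con and 17.3, 18.3 and 16.3 in GR-KO (chr2:73790346-73790746). The GR-KO libraries were all higher (adjusted p = 0.0447 by fold and 0.015 by −log10 p). The call by fold was lost on leaving out any 1 library, with the replicate number as a block and at adjusted p 0.01. Under each of these, 0 sites of the whole series were called higher by fold. A site near *Maf* had peaks in GR-con only, and 2 near *Atf4* in GR-KO only. Around 14 further early response genes, 251 sites held 0 called by fold and 3 by −log10 p. At *Dusp1*, a MAP kinase phosphatase gene known to be induced by glucocorticoids, the site 49376 bp upstream had −log10 p 118, 145 and 134 against 183, 197 and 196 (adjusted p = 0.0227), and the one 22840 bp upstream 18.8, 33.6 and 29.8 against 59.5, 43.0 and 67.5 (adjusted p = 0.0469). Both were higher in every GR-KO library. At *Btg2*, an antiproliferative early gene, a site 37006 bp downstream had 90.1, 97.1 and 89.3 against 48.5, 33.4 and 29.6, lower in every GR-KO library (adjusted p = 0.00701). Near *Ier2* and *Ier5* 1 site each had peaks in GR-con only, and near *Npas4* 1 site in GR-KO only, of 251, where 1.15% and 0.622% of all sites were so. Among the 251 sites, 1 was thus lower and 2 were higher by −log10 p, where 0.839% and 0.764% of all sites were called.

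Sites lay on both sides of the 50 kb limit. Just inside it, the *Jun* site listed only in GR-con was 49691 bp from the gene body, and the first site outside, at 53411 bp, had fold 5.48, 6.02 and 3.94 in GR-con and 6.86, 7.04 and 7.30 in GR-KO. For *Fosb* the sites at 49666 and 50507 bp had fold 10.2, 11.1 and 10.9 against 11.4, 10.8 and 9.81, and 6.57, 6.53 and 6.24 against 5.71, 5.96 and 6.46. For *Fos* the outermost site inside, at 47593 bp, had peaks in GR-KO replicates 1 and 2 alone, and the first outside, at 55569 bp, had fold 8.32, 4.52 and 7.27 in GR-con and a peak in 1 GR-KO library. For *Atf3* the site inside, at 44153 bp, had fold 17.8, 18.3 and 18.8 against 15.2, 15.1 and 15.7. The *Atf3* site outside, at 54586 bp, had 7.90, 9.56 and 7.89 against 4.51, 5.68 and 5.43. The *Fosl2* site inside, at 46976 bp, had 9.45, 7.15 and 8.28 against 5.06, 4.92 and 6.92. Sites at the limit of the remaining genes are not listed here.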

How the data were processed

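The deposited files were 6 ATAC-seq peak lists, 1 per library, made by the authors with the ENCODE ATAC-seq pipeline on mm10 with a relaxed p threshold. They hold, per peak, a score, the fold (a ratio over local background), the −log10 p and −log10 q as deposited, and the summit. The submitters' read-count test was not repeated, since the lists hold no counts, so precision rests on 3 libraries per condition. Summits were merged into sites reaching 200 bp to each side, with a peak in at least 2 libraries. Normal scores of within-library ranks of fold and of −log10 p were fitted with limma 3.58.1 (R 4.3.3, variance trend, two-sided, Benjamini-Hochberg over all 160874 sites, adjusted p under 0.05), and a library without a peak tied at the lowest rank. The fit was tested on simulated data. Presence and peak numbers got no test. Genes and starts are from GENCODE M21, sequences from RefSeq (GRCm38.p6). The sites named were each gene's promoter site (nearest the start, within 1000 bp), its site of highest mean rank elsewhere, every site called or present in one condition only, and the 5 of smallest unadjusted p in each direction. The genes and lists were chosen with earlier results of these data known. Alternatives were another site width, peak assignment by coverage, q at most 0.01, equal list lengths, 3 or 6 libraries per site, log2 values centred on the median of each library, the replicate block, other windows and leaving out each library. A result near a further partner gene is not reported here.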

Additional observations from a re-analysis of the deposited data

How the results depend on the processing

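Over all sites, the 204 lower and 99 higher by fold became 0 and 0 with the replicate number as a block, 445 and 242 by coverage, 347 and 338 on log2 values at sites with a peak in all 6 libraries (234 and 169 by rank there), 79 and 32 with sites of 201 bp and 0 and 0 at adjusted p 0.01; the higher count was 153 with a peak in at least 3 libraries and 169 with a peak in all 6. The 1350 lower and 1229 higher by −log10 p became 726 and 523 with the block, 497 and 282 by coverage, 707 and 529 with sites of 201 bp and 623 and 398 at adjusted p 0.01, and the higher count was 3823 on log2 values at sites with a peak in all 6 (1839 by rank there). Leaving out a library gave 0 to 3 lower and 0 higher by fold, 181 to 816 lower and 202 to 384 higher by −log10 p, 3072 to 3769 sites in GR-con only (main 1849) and 1739 to 2342 in GR-KO only (main 1000), where presence then needs fewer libraries.

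At the 10 genes, 60 sites lay within 10 kb, 304 within 100 kb and 86 nearest a listed gene's start. The count by fold was 0 in each direction under every alternative run. By −log10 p, the 2 lower became 0 with the block, by coverage, with sites of 201 bp, within 10 kb, by nearest gene and at adjusted p 0.01, and 1 with at least 3 libraries. With the block the adjusted p was 0.0841 at the *Fosb* site and 0.0792 at the *Junb* site, and the *Fos* site kept its call (0.0463). The 1 higher became 0 by coverage, with sites of 201 bp, within 10 kb and at adjusted p 0.01, and 4 on log2 values. Leaving out a library gave 0 to 1 lower and 0 higher. The 2 sites in GR-con only became 1 by coverage and 0 within 10 kb or by nearest gene. The 1 in GR-KO only became 0 at q at most 0.01, within 10 kb or by nearest gene, and 1 to 4 without 1 library. The cause was not tested. Deviations of same-numbered libraries had correlations of 0.0295, -0.005 and 0.0254 by fold, and those of different-numbered libraries -0.0328 to 0.00749. All are small, and they do not decide whether the numbers pair the libraries.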
